A study of Mus musculus with 48 samples.

Results

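Of the 53868 accessible regions (peaks) in the deposited table, 55 belong to 4 genes of the NFAT family: 24 to Nfatc1, 19 to Nfatc2, 5 to Nfatc3 and 7 to Nfat5. Peaks overlapping the body of a protein-coding gene were given to that gene, or, where they overlapped several, to the one with a boundary nearest the middle of the peak. A peak outside every gene body went to the nearest body within 100 kb. By that rule 41 of the 55 lie in a gene body and 14 outside one, and 53 of the 55 held reads in every library. The rule used position only and no measured value. Peaks are numbered within each gene from low to high coordinate, on GRCm38 (mm10) as deposited. The gene bodies are Nfatc1 chr18:80606205-80713071, Nfatc2 chr2:168476410-168601657, Nfatc3 chr8:106058818-106130537 and Nfat5 chr8:107293435-107379517 (RefSeq, GRCm38.p6).

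The data are ATAC-seq, an assay in which the Tn5 transposase cuts open chromatin, from 48 libraries in 21 groups. All groups share one background: CD8+ T cells from Cas9+ OT-1 mice (CD45.1), whose transgenic receptor recognises ovalbumin, transduced with a lentivirus holding 1 sgRNA and an ametrine reporter. They were moved into young or aged mice the day before inoculation of B16-OVA, a mouse melanoma that makes ovalbumin, and sorted from the tumours on day 15. The guide was the OTC control or targeted Zfp219 or Dusp5, and young and aged refer to the recipient mice. The sort gates were Slamf6+Tim-3- for Tprog (progenitor exhausted), Slamf6+Tim-3+ for Ttran (transitory, effector-like) and Slamf6-Tim-3+ for Tterm (terminally exhausted). Slamf6-Tim-3- cells (Ttad, age-associated dysfunctional) were sequenced from aged hosts only. So 12 groups are aged, with 2 libraries each, and 9 are young, 6 of them with 3 libraries and the 3 Tprog groups with 2. Each library pools cells of independent mice, which mice entered which pool is not given, and p-values measure the spread between these pools.

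Values are normalised read counts: reads in a peak divided by the library's size factor. Libraries held between 5638413 and 29942755 reads in peaks, with a median of 14691505, and the aged libraries (at most 16159054) were shallower than the deepest young ones. The column names number the libraries of each host age as a sheet of its own, so host age and sheet cannot be told apart. All 8 T cell marker genes (among them Cd3e, Cd8a and Lck) had peaks in their bodies, with 342 to 444 reads per kb of peak across libraries. Of the lists for other cells, 3 of 6 B16 melanoma genes, 1 of 3 B cell genes, 3 of 5 myeloid genes and 3 of 4 fibroblast and endothelial genes had a body peak. Tyr, Dct, Sox10, Ms4a1, Cd79a, Csf1r, Lyz2 and Cdh5 had none. Median reads per kb were 391 over the T cell list and 264 over the fibroblast and endothelial list. They were 228 over the B16 melanoma, 185 over the myeloid and 94.6 over the B cell list. The strongest body peak per gene ran from 617 (Cd5) to 1455 (Cd3d) in the T cell list. In the lists for other cells it ran from 31.3 (Pdgfrb) to 1021 (Pecam1), with 593 at Cd68 and 527 at Pmel. The part of other cells was not tested. In bulk libraries of sorted cells, fewer cells with an open site and less open chromatin per cell cannot be told apart. Accessibility does not check whether a guide removed its target.

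NFAT proteins are transcription factors with a Rel-type DNA-binding domain that recognise GGAAA. Nfatc1, Nfatc2 and Nfatc3 encode the calcium-dependent members: antigen receptor signalling raises calcium, calcineurin removes phosphates from the protein, and it enters the nucleus, where it acts with AP-1 on cytokine genes. NFAT without AP-1 is known for driving exhaustion and anergy genes in T cells. Nfat5 encodes the member that calcineurin does not control, known for the response to hypertonic stress. Accessibility at these genes is a readout of their regulatory DNA and not of the proteins' activity.

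The start sites of the family are shown first, because 4 of the peaks described below lie over them. The sequences are the bases just before each annotated start, from RefSeq on GRCm38.p6, written 5′ to 3′ on the gene's strand, with GGAAA on either strand (GGAAA or TTTCC) in capitals. The Nfatc2 distal window is chr2:168601658-168601907 (minus strand). Peak 19 holds this start but ends at 168601709, so most of the window, with all its capitals, lies beyond the peak. The Nfatc2 internal window is chr2:168590366-168590615 (minus strand), inside the gene body under peak 17. The Nfatc3 window, before the first of 2 starts, is chr8:106058568-106058817 (plus strand), under peak 1, and the Nfat5 window is chr8:107293220-107293434 (plus strand), under peak 4.
Nfatc2 distal: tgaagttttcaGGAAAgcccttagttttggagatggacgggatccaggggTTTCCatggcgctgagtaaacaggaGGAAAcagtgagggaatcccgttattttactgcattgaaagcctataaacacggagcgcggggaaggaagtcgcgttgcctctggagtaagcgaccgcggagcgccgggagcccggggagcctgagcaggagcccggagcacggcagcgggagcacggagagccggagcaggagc
Nfatc2 internal: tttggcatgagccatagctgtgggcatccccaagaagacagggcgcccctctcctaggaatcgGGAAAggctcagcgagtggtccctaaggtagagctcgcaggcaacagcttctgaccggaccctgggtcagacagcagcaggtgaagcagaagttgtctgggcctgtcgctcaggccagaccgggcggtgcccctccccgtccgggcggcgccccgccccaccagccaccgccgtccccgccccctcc
Nfatc3: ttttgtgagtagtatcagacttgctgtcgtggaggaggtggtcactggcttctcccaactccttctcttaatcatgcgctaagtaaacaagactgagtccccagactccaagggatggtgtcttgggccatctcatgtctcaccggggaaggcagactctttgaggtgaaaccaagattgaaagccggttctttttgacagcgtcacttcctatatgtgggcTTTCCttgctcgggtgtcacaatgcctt
Nfat5: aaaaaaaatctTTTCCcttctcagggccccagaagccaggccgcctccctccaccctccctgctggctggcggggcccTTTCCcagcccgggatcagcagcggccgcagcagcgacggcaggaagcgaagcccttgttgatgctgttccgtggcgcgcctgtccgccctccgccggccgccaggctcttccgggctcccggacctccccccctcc
Over 250 bases, the Nfatc2 distal window holds 3 GGAAA matches, the Nfat5 window 2, and the Nfatc2 internal and Nfatc3 windows 1 each; the last 35 bases of the Nfat5 window lie in the gene body and are not printed. Of 32851 promoter windows of 250 bases, 55.6% hold at least 1 GGAAA on either strand, so a match is common. None of these 4 windows holds TGANTCA, the AP-1 motif read on both strands, which 6.75% of all windows hold. The Nfat5 window has the highest G and C content of the 4 printed (71.6%, with 23 CpG), followed by the Nfatc2 internal (67.6%, 16 CpG), the Nfatc2 distal (59.6%, 19 CpG) and the Nfatc3 window (49.6%, 6 CpG). The window before the other Nfatc3 start (chr8:106059340-106059589, inside the gene body and not printed) has 65.2%, 22 CpG and 0 GGAAA or TGANTCA matches. The median of all windows is 52.4% with 6 CpG. A match is a description of the letters and not a binding site. Nfatc1 is named only.

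**Figure D1:**
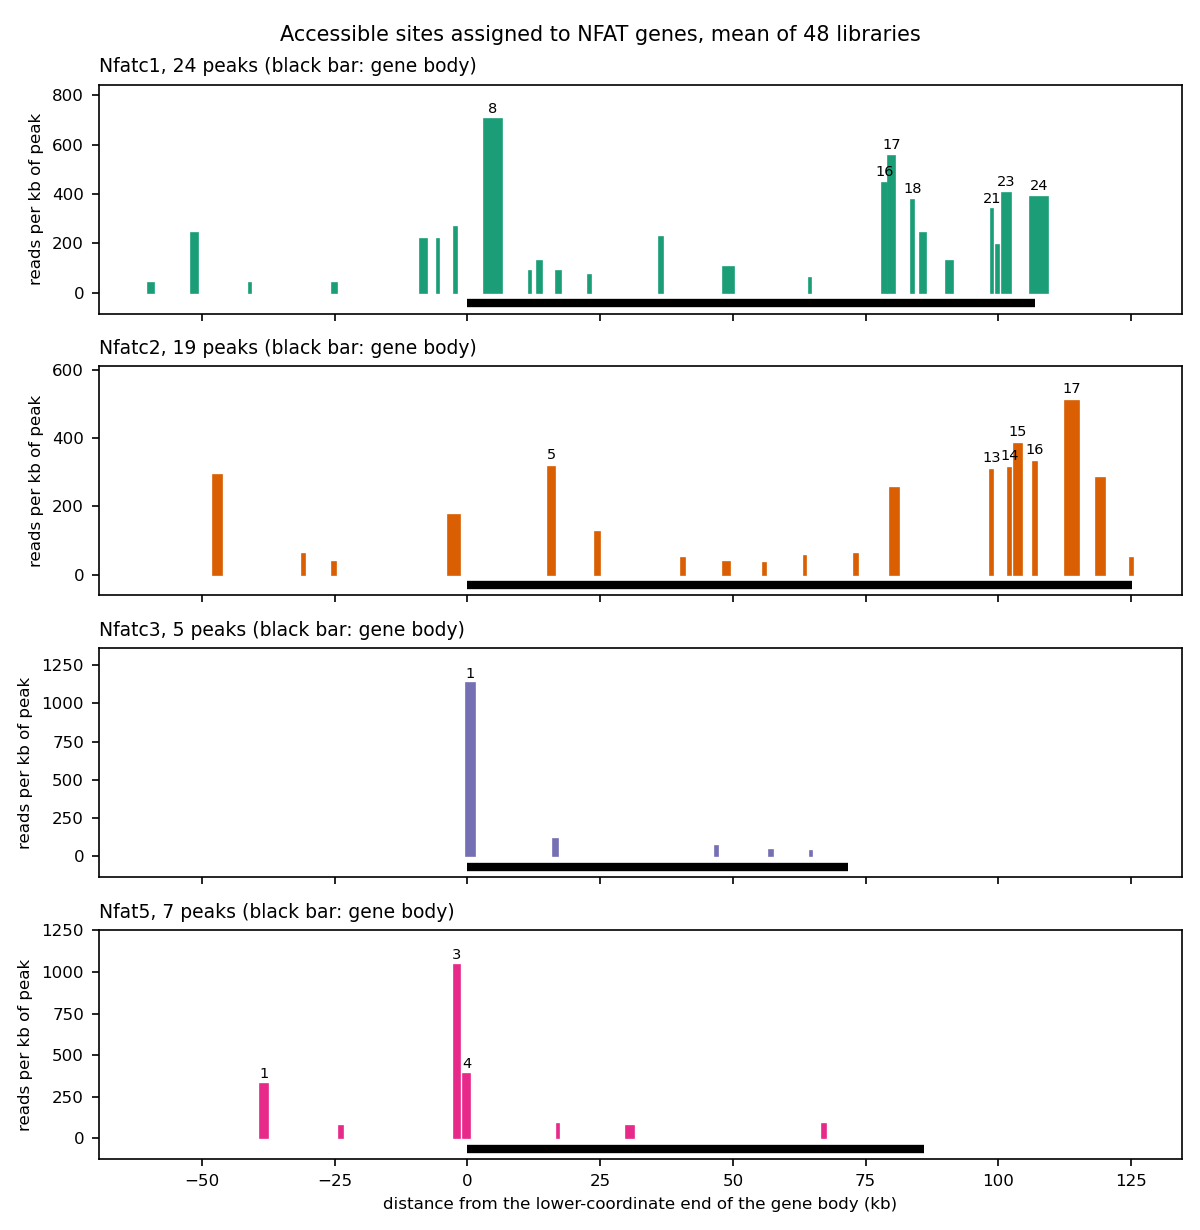
The 55 peaks along the 4 genes, with distance from the lower-coordinate end of the gene body on the x axis (kb) and reads per kb of peak, as the mean of 48 libraries, on the y axis. Narrow peaks are widened to be visible and numbers mark peaks of at least 300 reads per kb; Nfatc3 peak 1 (1133 reads per kb) and Nfat5 peak 3 (1044 reads per kb) stand above the rest.

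Per length, Nfatc3 peak 1 was the most accessible peak of the family, at 1133 reads per kb as the mean of 48 libraries. It spans chr8:106058480-106060175 and holds both annotated Nfatc3 starts. The next was Nfat5 peak 3 (chr8:107290889-107292012), at 1044 reads per kb, which lies outside the gene body, 1423 bp from it. Nfat5 peak 4 (chr8:107292682-107293891), which holds the Nfat5 start, reached only 389 reads per kb, so at Nfat5 the upstream peak was the more open of the pair. Nfatc1 peak 8 (chr18:80609331-80612706, in the gene body) had 704 reads per kb and the largest normalised read count of the family, a mean of 2375, over a width of 3375 bp. At Nfatc2, peak 17 (chr2:168589006-168591576), over the internal start, had 509 reads per kb. Peak 19 (chr2:168601233-168601709), over the distal start, had 48.5 reads per kb and a mean of 23.1, at percentile 15.7 of all peaks, against 98.1 for peak 17. So in these cells the internal Nfatc2 start lay in open chromatin and the distal one in a weak peak, whose values ran from 7.91 to 48.8 over the 48 libraries.

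Summed over their peaks, the genes differed in how far the 21 groups spread. Nfat5 varied most: its highest group mean was 1.63 times its lowest, against 1.39 times for Nfatc2, 1.22 times for Nfatc3 and 1.17 times for Nfatc1. These sums weight strong peaks most and are given as descriptions without a test.

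For Nfat5, the aged OTC groups held the top of the order, with 3111 ± 24.3 (SD) in Ttad, 3073 ± 303 in Ttran and 2942 ± 34.6 in Tterm. Next came aged Dusp5 Ttad (2688 ± 17.8) and Tterm (2677 ± 103), aged OTC Tprog (2667 ± 51.6) and aged Dusp5 Ttran (2608 ± 41.9). Young OTC Tprog (2540.2 ± 229) and aged Dusp5 Tprog (2518 ± 9.46) followed. The aged Zfp219 groups lay lower, at 2458 ± 157 in Tprog, 2457 ± 36.9 in Tterm, 2426 ± 56.5 in Ttad and 2310.2 ± 111 in Ttran, with young Dusp5 Ttran (2366 ± 131) among them. The young groups filled the rest: Dusp5 Tprog 2303 ± 52.4, Zfp219 Tprog 2190.0 ± 165, OTC Ttran 2186 ± 77.9, Dusp5 Tterm 2090.4 ± 17.7, OTC Tterm 2018 ± 83.6, Zfp219 Ttran 1922 ± 109 and Zfp219 Tterm 1906 ± 45.9. Every aged OTC group stood above every young group by its mean. Of the 20 pairs of neighbours in this order, 17 were closer than the larger of their SDs; the exceptions were aged OTC Tterm over aged Dusp5 Ttad, aged OTC Tprog over aged Dusp5 Ttran, and young OTC Ttran over young Dusp5 Tterm.

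For Nfatc2, the order started with aged OTC Ttran (5753 ± 6.75), aged Dusp5 Ttran (5621 ± 183), aged OTC Ttad (5514 ± 34.8), aged Dusp5 Tterm (5368 ± 118) and aged OTC Tterm (5315 ± 27.7). Aged Zfp219 Ttran (5309 ± 123) and Tterm (5264 ± 126), young OTC Ttran (5237 ± 63.5), young Dusp5 Ttran (5168 ± 156) and aged Zfp219 Ttad (5033 ± 90.8) came next. The middle held young OTC Tterm (4954 ± 91.6), aged Dusp5 Ttad (4944 ± 110.4) and the Tprog groups aged OTC (4932 ± 199), young OTC (4912 ± 170.0), young Dusp5 (4843 ± 84.2), aged Zfp219 (4764 ± 179) and aged Dusp5 (4713 ± 226). Last were young Dusp5 Tterm (4692 ± 221) and the young Zfp219 groups, at 4555 ± 51.7 in Ttran, 4375 ± 105 in Tterm and 4136 ± 25.01 in Tprog. Within each host age and guide, Ttran had the highest mean of the states. Neighbours were closer than the larger SD in 17 of 20 pairs; aged OTC Ttad over aged Dusp5 Tterm and the 2 steps between the young Zfp219 groups were wider.

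For Nfatc1, aged OTC Ttran (8532 ± 72.2) was highest and young Zfp219 Ttran (7304 ± 91.6) lowest, and each was separated from its neighbour by more than the larger SD. The 18 other neighbour pairs were not. Below the top stood young OTC Tprog (8260.3 ± 0.48), aged Zfp219 Ttad (8195 ± 128), young Dusp5 Tprog (8148 ± 158), aged OTC Tterm (8143 ± 168), young OTC Tterm (8097 ± 88.3), aged Zfp219 Tterm (8057 ± 302) and aged OTC Ttad (8038 ± 278). Young OTC Ttran (7885 ± 137), aged Dusp5 Ttran (7872 ± 174), young Dusp5 Ttran (7795 ± 141), aged Zfp219 Ttran (7749 ± 125) and aged Dusp5 Tterm (7742 ± 189) formed the middle. Aged OTC Tprog (7657 ± 28.1), aged Zfp219 Tprog (7657 ± 152), young Dusp5 Tterm (7626 ± 91.1), young Zfp219 Tprog (7593 ± 189), young Zfp219 Tterm (7553 ± 60.3), aged Dusp5 Ttad (7509 ± 379.6) and aged Dusp5 Tprog (7473 ± 92.2) came before the lowest. The sum hid opposite moves of single peaks, given below.

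For Nfatc3, the sum is almost all peak 1, whose mean of 1920 is most of the gene's 2117. Aged OTC Ttad (2279 ± 219.7) was highest and aged Dusp5 Ttad (1863 ± 15.7) lowest. Between them stood young OTC Ttran (2250.4 ± 156), aged Zfp219 Tprog (2225 ± 42.3), aged OTC Ttran (2218 ± 83.4), young Dusp5 Ttran (2216 ± 21.8), young OTC Tprog (2199.9 ± 93.0), young Zfp219 Tprog (2183 ± 3.61), young Zfp219 Tterm (2176 ± 62.4) and aged OTC Tterm (2172 ± 38.3). Young Zfp219 Ttran (2168 ± 142), aged Dusp5 Ttran (2158 ± 25.3), aged Zfp219 Ttran (2135 ± 114), young OTC Tterm (2122 ± 38.8), aged Zfp219 Ttad (2116 ± 32.4), young Dusp5 Tprog (2070.5 ± 158) and aged Zfp219 Tterm (2051 ± 62.6) came next. Aged OTC Tprog (1982 ± 12.3), aged Dusp5 Tprog (1966 ± 67.5), aged Dusp5 Tterm (1938 ± 127) and young Dusp5 Tterm (1903 ± 125) preceded the lowest. In 19 of 20 neighbour pairs the gap was smaller than the larger SD, the exception being aged Zfp219 Tterm over aged OTC Tprog.

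Peak by peak, 47 of the 55 members varied among the 21 groups (limma's F test on log2(value + 1), adjusted over all 53868 peaks, called at an adjusted p under 0.05), where 75.9% of all peaks did. They were 22 of 24 peaks at Nfatc1, 16 of 19 at Nfatc2, 7 of 7 at Nfat5 and 2 of 5 at Nfatc3. The most variable peak of each gene was Nfat5 peak 3 (F = 25.7), Nfatc2 peak 1 (F = 23.1), Nfatc1 peak 2 (F = 12.8) and Nfatc3 peak 3 (F = 5.71). The first 3 lie outside the gene bodies. The comparisons below show which groups separate them.

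**Figure D2:**
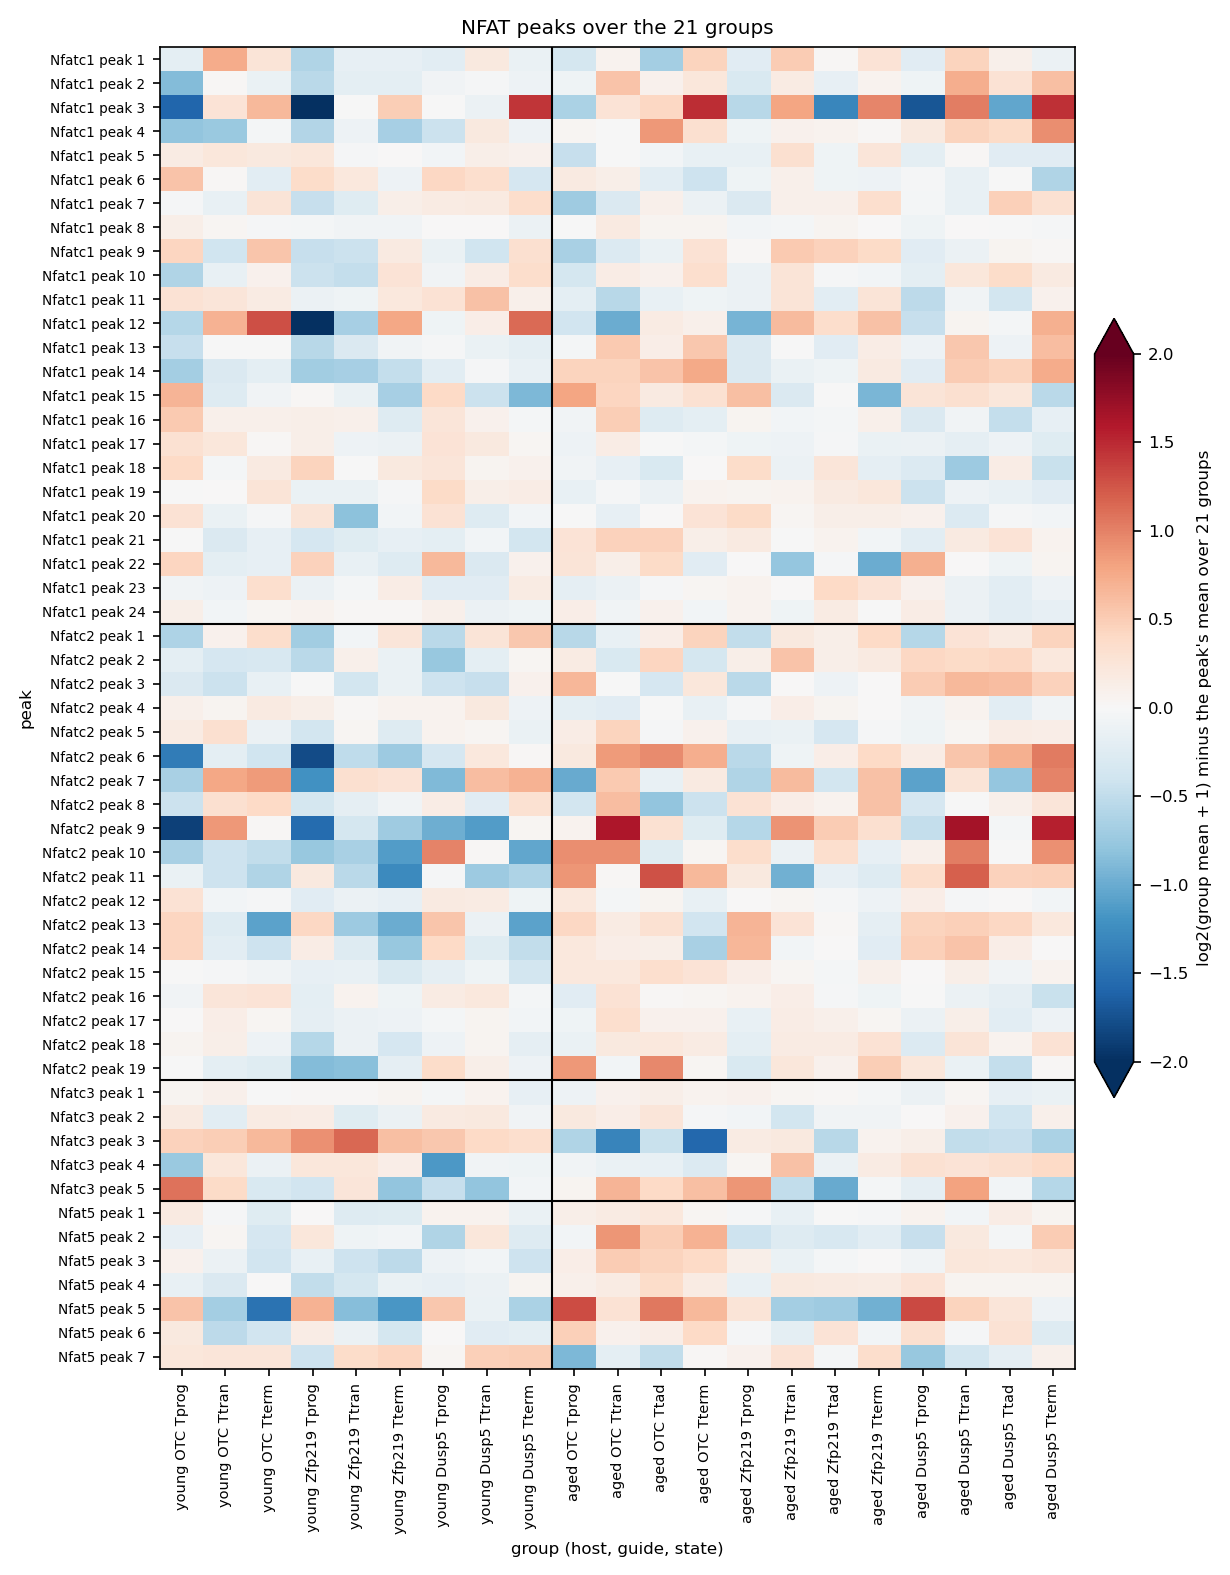
Heat map of the 55 peaks (rows, by gene and number) over the 21 groups (columns), coloured by log2(group mean + 1) minus the peak's mean over the 21 groups, with colours saturating at differences of 2 in either direction. Nfat5 peak 3 and Nfatc2 peak 6 are above their means in all 4 aged OTC groups, and Nfatc2 peak 1 is below its mean in all 6 Tprog groups.

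The first comparison set progenitor against terminally exhausted OTC cells. In young hosts 18 of the 55 peaks differed (8 higher and 10 lower in Tprog), where 26.5% of all peaks were called, 13.9% of them higher and 12.6% lower. Nfatc1 had 3 peaks higher and 6 lower, Nfatc2 had 2 higher and 4 lower, Nfat5 had 3 higher and none lower, and no Nfatc3 peak was called. The median difference of the members was 0.03 on the log2 scale, against 0.01 over all peaks. By gene the medians were -0.12 for Nfatc1, -0.04 for Nfatc2, 0.03 for Nfatc3 and 0.43 for Nfat5. In aged hosts 9 of 55 were called (3 higher and 6 lower), where 20.1% of all peaks were called, 8.88% higher and 11.2% lower. They were 2 Nfatc1 peaks lower, 3 Nfatc2 peaks higher and 2 lower, and 2 Nfat5 peaks lower. In what follows a call is lost where its adjusted p reached 0.05 or more in a fit that left out a library. Without young OTC Tprog replicate 2 the young count was 11, and the aged count was 1 to 5 with each library of the 2 groups left out, at its lowest without aged OTC Tprog replicate 2.

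Nfatc2 peak 1 (chr2:168428516-168430183, 46227 bp from the gene body) showed the state difference most plainly. In young OTC cells it held 276 and 323 normalised reads in Tprog, 486, 509.7 and 469.8 in Ttran, and 594, 589 and 579.9 in Tterm. In aged OTC cells it held 289.9 and 338 in Tprog, 385 and 448 in Ttran, 573 and 441 in Ttad, and 662 and 600.3 in Tterm. Tprog libraries were lowest and Tterm libraries highest in both host ages, with no overlap. The log2 difference of Tprog from Tterm was -0.97 (SE 0.11, limma adjusted p = 1.9e-11) in young and -1.01 (SE 0.12, adjusted p = 2.6e-10) in aged hosts. The same order, without overlap, held in all 6 sets of host age and guide: with Zfp219 targeted, Tprog held 304 and 266 against 478, 533 and 636 in Tterm in young hosts, and 318 and 335 against 571 and 642 in aged hosts. With Dusp5 targeted, the values were 316 and 319 against 605, 660.4 and 744 in young, and 309 and 314 against 625 and 629 in aged hosts.

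Members whose Tprog and Tterm libraries did not overlap in all 6 sets were Nfat5 peak 5, Nfatc1 peak 22 and Nfatc2 peak 14 (higher in Tprog) and Nfatc1 peaks 3 and 7 and Nfatc2 peaks 1 and 7 (lower). That is 3 higher and 4 lower of 55, where 7.55% and 6.85% of all peaks did the same, so as counts they are near the background.

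Nfatc2 also held peaks that opened the other way. Peak 13 (chr2:168574888-168575439), inside the gene, held 226 and 223 in young OTC Tprog, 147, 116 and 156 in Ttran, and 87.9, 84.9 and 64.7 in Tterm. Aged OTC libraries held 208 and 236 in Tprog, 202 and 172 in Ttran, 153 and 262 in Ttad, and 139 and 117 in Tterm. Tprog stood above Tterm at both ages without overlap, by 1.51 (SE 0.21, adjusted p = 6.0e-09) on the log2 scale in young and 0.79 (SE 0.23, adjusted p = 0.0066) in aged hosts. The aged call was lost without aged OTC Tprog replicate 2 or aged OTC Tterm replicate 2 (adjusted p up to 0.103). The young and aged differences were not told apart, with an age difference of -0.72 (SE 0.31, adjusted p = 0.255). Peak 14 (chr2:168578360-168578771), the next peak along the gene, held 161 and 184 in young OTC Tprog against 86.0, 113 and 88.3 in Tterm, and 131 and 167 against 102 and 61.4 in aged hosts. Its log2 differences were 0.85 (SE 0.23, adjusted p = 0.0030) and 0.89 (SE 0.25, adjusted p = 0.0060). The first lost its call without young OTC Tprog replicate 2 (adjusted p = 0.0635), and the second without aged OTC Tprog replicate 2 or aged OTC Tterm replicate 2 (adjusted p up to 0.280).

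Peaks 7, 9 and 6 of Nfatc2, weaker than peak 1, were also lower in Tprog than in Tterm in young hosts. Peak 9 did not share the order of peak 1, as its highest mean was in Ttran. Peak 12, called in aged hosts, went the other way and was higher in Tprog. Peak 7 (chr2:168516614-168517456) held 18.6 and 26.5 in young OTC Tprog against 58.1, 75.5 and 63.0 in Tterm, and 15.9 and 18.6 against 30.5 and 50.4 in aged hosts. Its log2 difference was -1.51 (SE 0.39, adjusted p = 0.0019) in young and -1.15 (SE 0.43, adjusted p = 0.0474) in aged hosts. The young call was lost without young OTC Tprog replicate 1 (adjusted p = 0.0628) and the aged one in 3 of 4 fits that left a library out, with the largest adjusted p without aged OTC Tterm replicate 2 (adjusted p = 0.372). Peak 9 (chr2:168532014-168532714) held 7.88 and 1.71 in young OTC Tprog, 22.96, 48.5 and 42.2 in Ttran, and 22.8, 20.4 and 18.6 in Tterm. Its difference of -2.13 (SE 0.58, adjusted p = 0.0027) rested on Tprog replicate 2, without which it was -1.28 (adjusted p = 0.228). Peak 6 (chr2:168500417-168501383) is described with host age below; its young difference was -1.002 (SE 0.27, adjusted p = 0.0023), lost without young OTC Tprog replicate 2 (adjusted p = 0.0691). In aged hosts peak 12 was also called, at 0.36 (SE 0.14, adjusted p = 0.0465), and lost in 3 of 4 fits, with the largest adjusted p without aged OTC Tprog replicate 2 (adjusted p = 0.461).

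**Figure D3:**
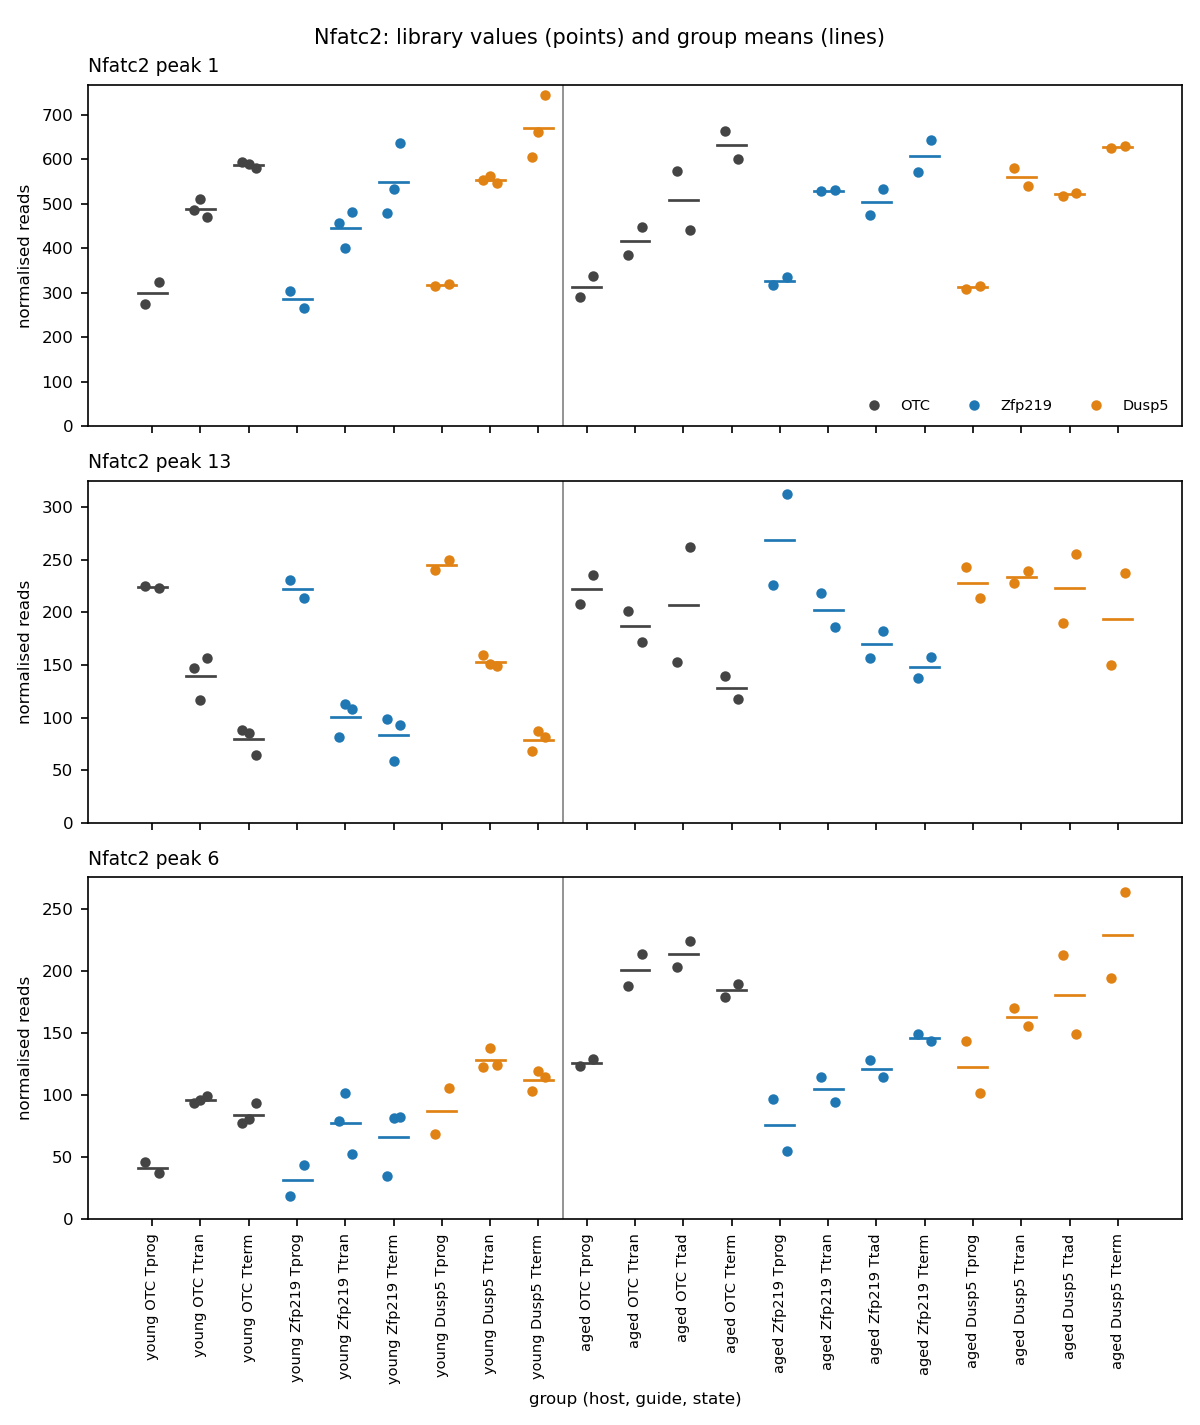
Normalised read counts of Nfatc2 peaks 1, 13 and 6 in each library (dots) of the 21 groups, with group means as lines. Peak 1 is at most 338 in every Tprog library and at least 478 in every Tterm library; peak 13 has the opposite order in young OTC hosts, and peak 6 is higher in aged than in young OTC libraries of each state.

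Nfat5, the tonicity-responsive member, had its largest F at peak 3, upstream of its start, while the log2 differences of the weak peak 5 were larger. In young OTC cells peak 3 held 1147 and 1352 in Tprog, 1128, 1122 and 1003 in Ttran, and 922, 839 and 965 in Tterm. In aged OTC cells it held 1279 and 1321 in Tprog, 1525 and 1827 in Ttran, 1635 and 1598 in Ttad, and 1559 and 1552 in Tterm. So Tprog was the highest state in young and the lowest in aged hosts, with no overlap with Tterm at either age. The log2 difference of Tprog from Tterm was 0.46 (SE 0.08, adjusted p = 3.6e-06) in young and -0.26 (SE 0.09, adjusted p = 0.0257) in aged hosts. The aged call was lost in each of the 4 fits that left out a library (adjusted p up to 0.158, without aged OTC Tprog replicate 1, where the difference was -0.24) and under quantile normalization (-0.11). The test of the age difference gave -0.72 (SE 0.12, adjusted p = 2.6e-05), and it held in all 9 fits that left out a library. It was the only member of 55 called in that test, where 2.32% of all peaks were. The test used the OTC guide alone. With Dusp5 targeted the order of Tprog and Tterm turned between the ages too, and with Zfp219 targeted it did not. Aged Zfp219 libraries held 1353 and 1215 in Tprog against 1212 and 1171 in Tterm. Young Zfp219 libraries held 1109 and 1030 against 849, 830 and 778. Peak 3 is among the strongest 5% of all peaks, whose median age difference was -0.17, against -0.03 over all peaks; the part of that shift in the result was not tested.

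Peak 5 of Nfat5 (chr8:107310227-107310698), within the gene, is weak and followed Tprog. It held 65.9 and 46.2 in young OTC Tprog, 18.99, 25.8 and 24.3 in Ttran, and 15.8, 7.08 and 15.7 in Tterm. Aged OTC libraries held 101 and 86.9 in Tprog, 28.6 and 63.8 in Ttran, 70.4 and 87.5 in Ttad, and 67.6 and 51.3 in Tterm. The young log2 difference of Tprog from Tterm was 2.096 (4.27-fold on the value + 1 scale, SE 0.415, adjusted p = 3.5e-05), and it held with each library left out. The aged difference was 0.66 and did not pass, while the age difference of -1.44 (SE 0.62, adjusted p = 0.252) did not pass either. Peak 1 (chr8:107254413-107255922, 37513 bp from the body) held 538 and 593 in young OTC Tprog against 426, 419.9 and 414 in Tterm. Its difference was 0.43 (SE 0.11, adjusted p = 0.0015), lost without young OTC Tprog replicate 2 (adjusted p = 0.0608). In aged hosts peak 7 was lower in Tprog, at -0.87 (SE 0.33, adjusted p = 0.0470), lost in 3 of 4 fits, with the largest adjusted p without aged OTC Tterm replicate 1 (adjusted p = 0.505). The start-site peak 4 held 408 and 442 in young OTC Tprog against 441, 479 and 508 in Tterm and was not called.

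**Figure D4:**
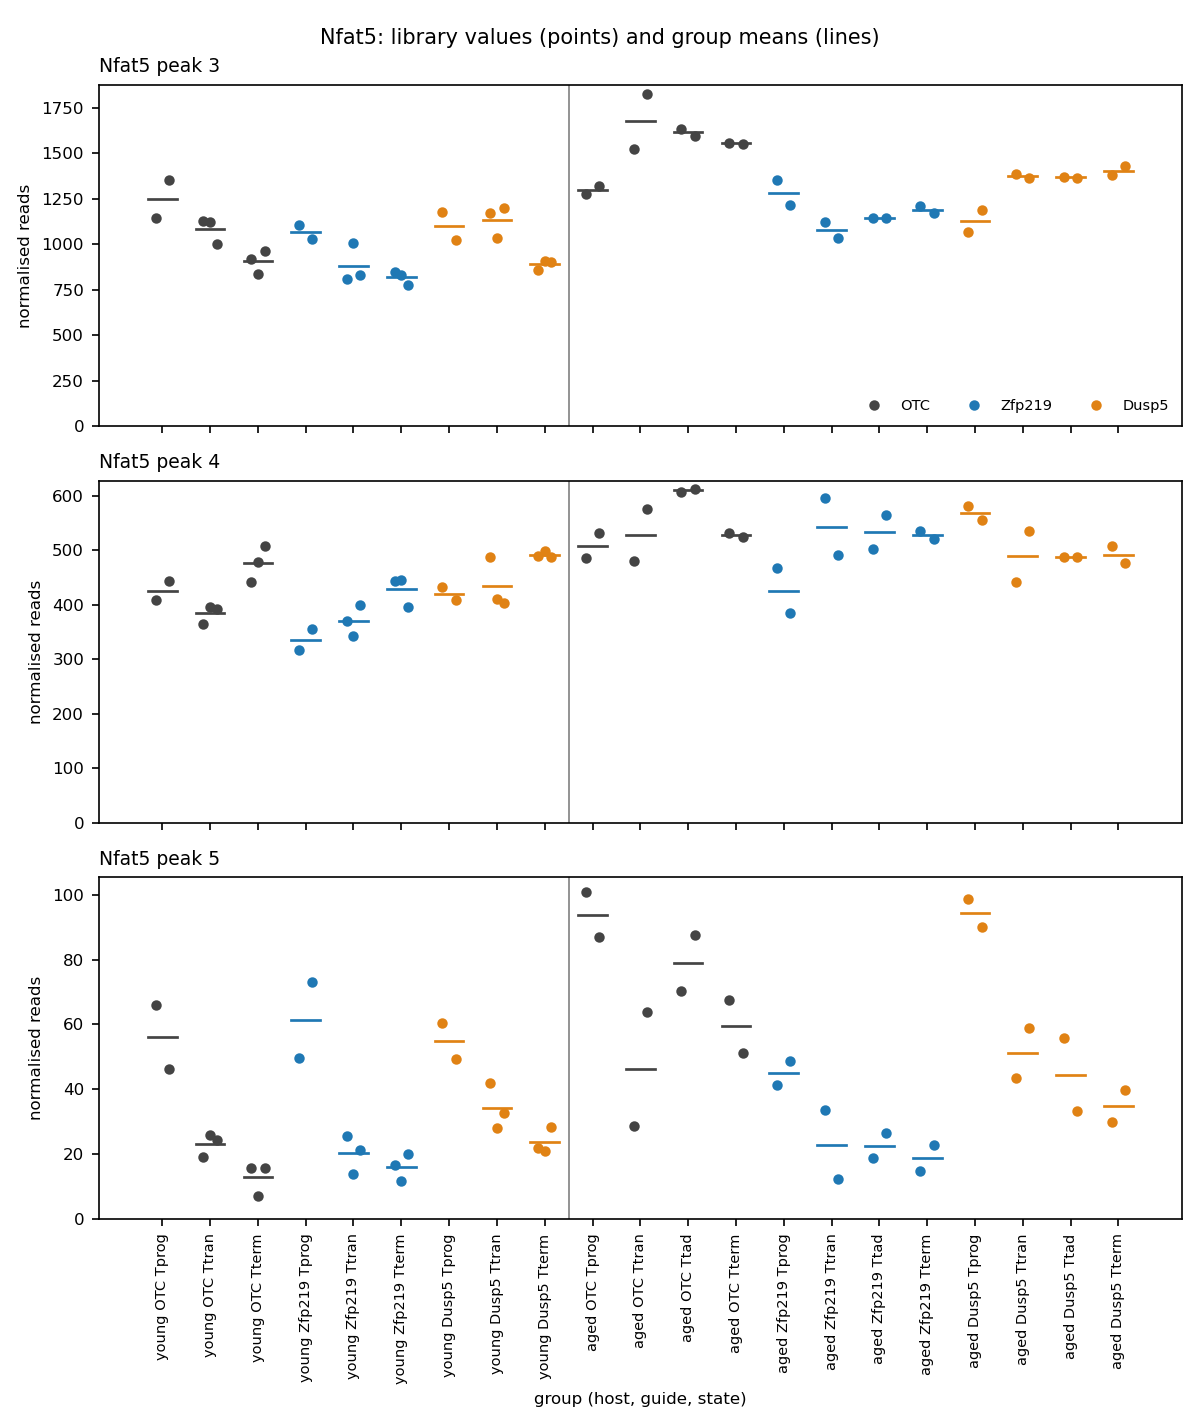
Normalised read counts of Nfat5 peaks 3, 4 and 5 in each library (dots) of the 21 groups, with group means as lines. At peak 3 the aged OTC libraries (1279 to 1827) lie above the young OTC Tterm libraries (839 to 965). The order of Tprog and Tterm turns between the host ages with the OTC and Dusp5 guides. With the Zfp219 guide Tprog lies above Tterm at both ages.

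At Nfatc1, known for its short autoregulated isoform in activated lymphocytes, peak 2 (chr18:80554167-80555526, 50679 bp from the body) varied most. In young OTC cells it held 149.7 and 200.2 in Tprog, 348, 310.4 and 323 in Ttran, and 295, 309 and 276 in Tterm. In aged OTC cells it held 301 and 301 in Tprog, 522 and 430.4 in Ttran, 367 and 317 in Ttad, and 367 and 387 in Tterm. Tprog was lowest at both ages without overlap, and Ttran libraries were the highest. The difference of Tprog from Tterm was -0.76 (SE 0.13, adjusted p = 4.0e-06) in young hosts and -0.32 (SE 0.15, adjusted p = 0.114) in aged hosts. The young call held with each library left out, at -0.55 without young OTC Tprog replicate 1. Peak 23 (chr18:80706914-80708577) also stayed called in all 5 fits: young OTC libraries held 602 and 668 in Tprog, 578, 652 and 632 in Ttran, and 802, 827 and 876 in Tterm, a difference of -0.39 (SE 0.09, adjusted p = 5.1e-04).

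The other Nfatc1 calls were each lost in at least 1 of the fits that left out a library. Peak 12 (chr18:80628960-80629343) held 18.6 and 11.98 in young OTC Tprog against 38.6, 70.8 and 64.1 in Tterm, a difference of -1.84 (SE 0.55, adjusted p = 0.0069) that was lost without Tprog replicate 2 (adjusted p = 0.118). Peak 3, one of the weakest members, held 2.87 and 1.71 against 14.5, 9.44 and 19.1, a difference of -2.20 (SE 0.72, adjusted p = 0.0147) lost without Tprog replicate 2 (adjusted p = 0.133) or Tterm replicate 3. Such low peaks rest on few reads. Higher in young Tprog were peak 6 (0.78, SE 0.24, adjusted p = 0.0103), peak 16 (0.41, SE 0.13, adjusted p = 0.0108) and peak 17 (0.29, SE 0.09, adjusted p = 0.0133). Peak 6 lost its call without young OTC Tprog replicate 2 (adjusted p = 0.108), peak 16 in 2 of 5 fits, with the largest adjusted p without Tprog replicate 1 (adjusted p = 0.158), and peak 17 in 3 of 5, with the largest adjusted p without Tterm replicate 2 (adjusted p = 0.137). In aged hosts peak 10 (-0.72, SE 0.25, adjusted p = 0.0308) and peak 13 (-0.57, SE 0.21, adjusted p = 0.0393) were lower in Tprog. Peak 10 was lost in 3 of 4 fits, with the largest adjusted p without aged OTC Tprog replicate 2 (adjusted p = 0.390), and peak 13 in 4 of 4, with the largest adjusted p without aged OTC Tterm replicate 1 (adjusted p = 0.228). The strongest peak, 8, held 2584 and 2556 in young OTC Tprog against 2378, 2435 and 2205 in Tterm and was not called. Peak 24 (chr18:80712159-80715480), over the higher-coordinate end of the gene and named for that place after its values had been seen, held 1429.9 and 1366 against 1277, 1381 and 1314 and was not called.

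At Nfatc3, the start-site peak 1 held 1875 and 2083 in young OTC Tprog, 2019, 2198 and 1949 in Ttran, and 1907, 1897 and 1903 in Tterm. Aged OTC libraries held 1808 and 1767 in Tprog, 1958 and 2107 in Ttran, 2254 and 1898 in Ttad, and 1979.7 and 2034 in Tterm. In young hosts Tprog overlapped both other states. Young Ttran lay above Tterm without overlap, by 0.11 (SE 0.06, limma adjusted p = 0.264), and was not called. In aged hosts both Tprog libraries lay below those of the other states. The aged difference of Tprog from Tterm was -0.17 (SE 0.07, adjusted p = 0.0787) and was not called.

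The transitory state was compared with both ends. Against Tterm, 5 members were called in young hosts (3 higher, 2 lower), where 8.38% of all peaks were, and 2 in aged hosts (1 higher, 1 lower), where 3.22% were. In young hosts Nfatc2 peak 13 (0.82, SE 0.19, adjusted p = 0.0014) and Nfatc2 peak 5 (0.45, SE 0.11, adjusted p = 0.0028) were higher in Ttran and Nfatc1 peak 23 was lower (-0.43, SE 0.08, adjusted p = 1.3e-04). These 3 calls held in all 6 fits that left a library out. Nfat5 peak 3 was higher (0.26, SE 0.07, adjusted p = 0.0130) and Nfat5 peak 4 lower (-0.31, SE 0.10, adjusted p = 0.0386). The first was lost in 3 of 6 fits, with the largest adjusted p without young OTC Tterm replicate 2 (adjusted p = 0.147), and the second in 5 of 6, with the largest adjusted p without young OTC Tterm replicate 3 (adjusted p = 0.191). Nfatc2 peak 5 (chr2:168491497-168492943) held 559.8, 578 and 566 in young OTC Ttran against 386, 444 and 420.1 in Tterm. In aged hosts Nfatc1 peak 16 (chr18:80684294-80685143) held 493 and 556 in Ttran against 334 and 319 in Tterm, a difference of 0.68 (SE 0.14, adjusted p = 0.0015) that held with each library left out. Nfatc2 peak 1 was lower in aged Ttran, at -0.60 (SE 0.12, adjusted p = 0.0014), lost without aged OTC Tterm replicate 1 (adjusted p = 0.0671) or aged OTC Ttran replicate 1.

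Against Tprog, 11 members were called in young hosts (5 higher and 6 lower in Ttran), where 16.9% of all peaks were. In aged hosts 9 were called, all of them higher in Ttran, where 9.99% of all peaks were called higher and 6.98% lower. Without young OTC Tprog replicate 1 the young count was 5, and without aged OTC Tprog replicate 1 the aged count was 5. Nfatc1 peak 2 rose at both ages, by 0.91 (SE 0.13, adjusted p = 8.6e-08) in young and 0.65 (SE 0.15, adjusted p = 5.1e-04) in aged hosts, and both calls held in each left-out fit. Nfatc2 peak 1 rose by 0.71 (SE 0.11, adjusted p = 8.6e-07) in young and 0.41 (SE 0.12, adjusted p = 0.0138) in aged hosts, the latter lost without aged OTC Tprog replicate 1 (adjusted p = 0.234) or aged OTC Ttran replicate 2. In young hosts Nfatc2 peak 6 (1.21, SE 0.27, adjusted p = 3.7e-04) and peak 9 (2.92, SE 0.58, adjusted p = 6.0e-05) were higher in Ttran and held. Nfat5 peak 5 was lower there (-1.24, SE 0.415, adjusted p = 0.0266), and lost in 3 of 5 fits, with the largest adjusted p without young OTC Tprog replicate 1 (adjusted p = 0.257).

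In aged hosts, the internal-start peak 17 of Nfatc2 held 1162 and 1294 in OTC Tprog and 1782 and 1509.7 in Ttran. The Ttran libraries were higher without overlap, by 0.42 (SE 0.08, adjusted p = 8.2e-05), and the call held with each library left out. Nfat5 peak 3 was higher in aged Ttran by 0.36 (SE 0.09, adjusted p = 0.0015), lost without aged OTC Ttran replicate 2 (adjusted p = 0.153) and under quantile normalization (0.16), and Nfatc1 peak 16 by 0.57 (SE 0.14, adjusted p = 0.0021), lost without aged OTC Tprog replicate 2 (adjusted p = 0.0697) or aged OTC Ttran replicate 2. Nfatc1 peak 8 was higher by 0.19 (SE 0.06, adjusted p = 0.0280), lost in all 4 fits that left a library out (adjusted p up to 0.148, without aged OTC Tprog replicate 2), and it changed sign under quantile normalization. The strongest 5% of all peaks, to which Nfatc2 peak 17, Nfat5 peak 3 and Nfatc1 peak 8 belong, had a median difference of 0.15 in this comparison, against -0.02 over all peaks; its part in these results was not tested.

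The double-negative Ttad cells of aged hosts were set against the other aged OTC states. Against Tterm no member was called by limma, where 7.28% of all peaks were; 6 of 55 had an unadjusted p under 0.05, and edgeR's quasi-likelihood test called 2. Against Tprog 3 members were called, all higher, where 6.55% of all peaks were called and 3.82% higher. They were Nfatc2 peak 1 (0.68, SE 0.12, adjusted p = 7.3e-05), Nfat5 peak 3 (0.31, SE 0.09, adjusted p = 0.0163) and Nfatc3 peak 1 (0.21, SE 0.07, adjusted p = 0.0493). Nfatc2 peak 1 held with each library left out. Nfat5 peak 3 was lost in 4 of 4 fits, with the largest adjusted p without aged OTC Tprog replicate 1 (adjusted p = 0.151), and Nfatc3 peak 1 in 3 of 4, with the largest adjusted p without aged OTC Ttad replicate 1 (adjusted p = 0.703). Quantile normalization ended both calls, at 0.19 and 0.08, and edgeR, library weights and the compared groups alone each ended that of Nfatc3 peak 1. The strongest 5% of peaks had a median of 0.13 in this comparison, and its part was not tested. Against Ttran 4 members were called, all lower, where 7.74% of all peaks were called and 4.72% lower. Nfatc1 peak 16 held 364 and 262 in Ttad against 493 and 556 in Ttran, a difference of -0.76 (SE 0.14, adjusted p = 1.1e-04) that held with each library left out. Nfatc1 peak 2 (-0.47, SE 0.15, adjusted p = 0.0300), Nfatc2 peak 5 (-0.47, SE 0.13, adjusted p = 0.0153) and Nfatc2 peak 8 (-1.42, SE 0.42, adjusted p = 0.0217) were lower too. They were lost in 2, 2 and 3 of 4 fits, with the largest adjusted p without aged OTC Ttran replicate 1 (adjusted p = 0.304), aged OTC Ttran replicate 2 (adjusted p = 0.364) and aged OTC Ttad replicate 1 (adjusted p = 0.227). Library weights and the compared groups alone ended all 3 calls.

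Host age gave the largest number of calls: 25 of 55 members differed between aged and young OTC cells, averaged over Tprog, Ttran and Tterm (16 higher and 9 lower in aged), where 36.5% of all peaks were called, 17.3% higher and 19.1% lower. By gene, Nfat5 had 5 peaks higher and 1 lower of 7, Nfatc2 had 6 higher and 1 lower of 19, Nfatc1 had 5 higher and 6 lower of 24, and Nfatc3 had 1 lower of 5. The median difference of the 7 Nfat5 peaks was 0.49 on the log2 scale, and of the 19 Nfatc2 peaks 0.11, against 0.00 over all peaks. With each of the 14 libraries left out in turn the count was 20 to 25. The aged libraries also differed in depth, as given above, and had lower median reads per kb over every marker list. Over the myeloid list the median was 160.4 in aged and 195 in young libraries, with Csf1r and Lyz2 without a body peak. It was 381 and 409 over the T cell list, and 219 and 239 over the B16 melanoma list. Over the B cell list it was 90.8 and 95.8, and over the fibroblast and endothelial list 262 and 265. Over the sorting markers Slamf6 and Havcr2 it was 336 and 365. The part of these in the results was not tested.

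Nfat5 peak 3 was higher in aged OTC cells by 0.49 (SE 0.05, adjusted p = 8.7e-15) on average, a 1.40-fold difference on the value + 1 scale. The average does not apply to each state. Aged Ttran and Tterm libraries lay above the young ones without overlap. In Tprog the ages overlapped, with 1279 and 1321 in aged against 1147 and 1352 in young hosts. Nfat5 peak 4, over the start, held 485 and 531 in aged OTC Tprog, 479.8 and 575 in Ttran, and 531 and 523 in Tterm, against the young values of 408 and 442, 365, 396 and 393, and 441, 479 and 508. The aged libraries were higher in each state without overlap, by 0.28 (SE 0.07, adjusted p = 3.0e-04) on average. Nfat5 peak 5 rose by 1.27 (SE 0.25, adjusted p = 1.5e-05), and the libraries given above show the largest gap in Tterm (67.6 and 51.3 in aged against 15.8, 7.08 and 15.7 in young). These 3 calls held in all 14 left-out fits. Nfat5 peak 7 was lower in aged hosts, at -0.53 (SE 0.18, adjusted p = 0.0134), lost without aged OTC Tterm replicate 2 or young OTC Tprog replicate 2 (adjusted p = 0.260).

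At Nfatc2, peak 6 held 123 and 129 in aged OTC Tprog, 188 and 214 in Ttran, and 179 and 189.7 in Tterm. The young libraries held 45.8 and 36.8 in Tprog, 93.2, 96.2 and 99.2 in Ttran, and 77.1, 80.2 and 93.4 in Tterm. Every aged library stood above every young library of any state, and the difference was 1.26 (2.40-fold on the value + 1 scale, SE 0.16, adjusted p = 1.8e-10). Peak 10 (1.203, SE 0.39, adjusted p = 0.0111) and peak 11 (0.94, SE 0.24, adjusted p = 8.9e-04) were higher as well, and peak 4 (chr2:168472796-168474964) was lower (-0.31, SE 0.08, adjusted p = 6.9e-04). Peak 11 (chr2:168549212-168549931) held 78.1 and 72.8 in aged OTC Tprog against 47.3 and 25.7 in young. All 4 held in the 14 left-out fits.

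At Nfatc1 the calls went both ways. Peak 14 (chr18:80654328-80656370) held 279 and 299.9 in aged OTC Tprog, 253 and 324 in Ttran, and 386 and 326 in Tterm, against 149.7 and 114, 136, 158 and 226, and 217, 165 and 173 in young hosts. The aged libraries were higher in each state without overlap, by 0.95 (1.93-fold, SE 0.11, adjusted p = 1.9e-11). Peak 2 (0.56, SE 0.08, adjusted p = 7.6e-09) was higher too, with both calls held in all 14 fits, and peak 4 (0.67, SE 0.26, adjusted p = 0.0347) was lost in 9 of 14, with the largest adjusted p without young OTC Ttran replicate 2 (adjusted p = 0.0998). Lower in aged hosts were peak 12 (-1.09, SE 0.33, adjusted p = 0.0053), peak 11 (-0.51, SE 0.16, adjusted p = 0.0094) and peak 7 (-0.41, SE 0.16, adjusted p = 0.0314). Peak 12 was lost without aged OTC Tprog replicate 2 or aged OTC Ttran replicate 1 (adjusted p = 0.1001), peak 11 without aged OTC Tterm replicate 1 (adjusted p = 0.0520), and peak 7 in 5 of 14 fits, with the largest adjusted p without aged OTC Tterm replicate 2 (adjusted p = 0.141).

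Nfatc3 peak 3 (chr8:106105496-106106063), a weak peak in the gene body, had the largest fall with age among the called members. It held 61.6 and 33.4 in young OTC Tprog, 47.7, 66.4 and 31.7 in Ttran, and 49.3, 37.7 and 75.4 in Tterm. In aged OTC cells it held 23.8 and 20.4 in Tprog, 15.04 and 11.2 in Ttran, and 9.81 and 11.9 in Tterm. Every aged library lay below every young library, and the difference was -1.65 (SE 0.24, adjusted p = 1.4e-08), held in all 14 fits. In all 9 sets of guide and state the aged libraries of this peak lay below the young ones without overlap, which 1.53% of all peaks did. No member was higher in all 9 sets, where 0.954% of all peaks were; Nfatc1 peaks 2 and 14 and Nfatc2 peak 15 were higher without overlap in 8 of 9, and 2.65% of all peaks were in at least 8.

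The Zfp219 and Dusp5 guides were set against OTC within each host age. Both share the OTC control libraries, so the Zfp219 and Dusp5 values below are not independent of each other. In aged hosts Zfp219 targeting, averaged over 4 states, changed 18 of 55 members (6 higher, 12 lower), where 25.8% of all peaks were called, 12.1% higher and 13.7% lower. Nfatc1 had 2 higher and 4 lower, Nfatc2 had 2 and 4, Nfatc3 had 1 higher, and Nfat5 had 1 higher and 4 lower. The median over the 7 Nfat5 peaks was -0.28, against -0.04 over all 55 and 0.01 over all peaks. The count ran from 15 to 20 over the 16 fits that left out a library. Aged Zfp219 libraries were deeper than aged OTC without overlap in Ttran, Ttad and Tterm, and overlapped in Tprog. In Ttran they held 12793436 and 16034483 reads in peaks against 9060635 and 8547780. In Ttad they held 15723953 and 15700492 against 8059981 and 10929698. The part of depth was not tested.

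Nfat5 peak 3 held 1353 and 1215 in aged Zfp219 Tprog, 1121 and 1035 in Ttran, 1145 and 1146 in Ttad, and 1212 and 1171 in Tterm. In Ttran, Ttad and Tterm these lay below the aged OTC values without overlap, and in Tprog they overlapped. The difference was -0.38 (SE 0.04, adjusted p = 1.7e-11). Nfat5 peak 5 held 41.2 and 48.7 in Tprog, 33.7 and 12.2 in Ttran, 18.7 and 26.4 in Ttad, and 14.6 and 22.8 in Tterm, lower than OTC, at -1.37 (0.386-fold, SE 0.23, adjusted p = 1.0e-06). Nfat5 peak 2 (-0.82, SE 0.20, adjusted p = 0.0011) was lower and Nfat5 peak 7 (0.57, SE 0.16, adjusted p = 0.0050) higher. These 4 calls held in all 16 fits. The start-site peak 4 was not called (-0.10, SE 0.06, adjusted p = 0.220). Nfatc2 peak 11 held 44.1 and 48.7 in aged Zfp219 Tprog, 19.4 and 21.2 in Ttran, 33.1 and 38.4 in Ttad, and 28.4 and 38.3 in Tterm, below OTC in every state without overlap, by -0.99 (SE 0.22, adjusted p = 2.4e-04). Nfatc2 peak 6 fell in the same way by 0.72 on the log2 scale (SE 0.15, adjusted p = 6.8e-05), and Nfatc2 peak 5 was lower, at -0.32 (SE 0.07, adjusted p = 7.2e-05).

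At Nfatc1, peak 14 held 166 and 179.7 in aged Zfp219 Tprog, 188 and 199 in Ttran, 202 and 197 in Ttad, and 205 and 276 in Tterm. OTC libraries held 320.3 and 306 in Ttad, and with the values above they were higher in all 4 states without overlap, a difference of -0.63 (SE 0.10, adjusted p = 7.4e-07). Peak 13 (-0.38, SE 0.10, adjusted p = 0.0035) and peak 2 (-0.26, SE 0.07, adjusted p = 0.0053) were lower, and peak 23 (0.26, SE 0.05, adjusted p = 2.6e-05) was higher. Nfatc3 peak 3 was higher by 0.94 (SE 0.22, adjusted p = 5.0e-04) averaged over the 4 states, with 46.9 and 29.4 in Tprog, 43.9 and 34.3 in Ttran, 19.5 and 26.4 in Ttad, and 39.6 and 31.8 in Tterm. In Tprog, Ttran and Tterm these lay above the aged OTC libraries without overlap, and in Ttad they overlapped the OTC values of 28.5 and 20.9. All these Nfatc1 and Nfatc3 calls held in the 16 fits. Members below OTC in all 4 aged states without overlap were Nfat5 peak 1, Nfatc1 peaks 2 and 14 and Nfatc2 peaks 6 and 11. That is 5 of 55, where 5.14% of all peaks were lower in that way, and no member was higher, where 2.53% of all peaks were. The peaks that differed by age and by the Zfp219 guide in aged hosts share the aged OTC libraries: for Nfat5 peak 5 the 2 differences were 1.27 and -1.37, for Nfatc2 peak 6 they were 1.26 and -0.72, for Nfatc1 peak 14 they were 0.95 and -0.63, and for Nfatc3 peak 3 they were -1.65 and 0.94.

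Dusp5 targeting in aged hosts changed 9 of 55 members (2 higher, 7 lower), where 12.2% of all peaks were called, 4.35% higher and 7.87% lower. Nfat5 peak 3 held 1069.7 and 1191 in aged Dusp5 Tprog, 1388 and 1364 in Ttran, 1371 and 1365 in Ttad, and 1379.5 and 1429 in Tterm. All were below the OTC libraries of the same state, by -0.22 (SE 0.04, adjusted p = 1.7e-04). It was the 1 member of 55 with no overlap in all 4 states, where 2.13% of all peaks were lower in that way. Nfatc2 peak 15 (-0.23, SE 0.06, adjusted p = 0.0024), Nfatc2 peak 17 (-0.19, SE 0.04, adjusted p = 7.5e-04) and Nfatc3 peak 1 (-0.14, SE 0.03, adjusted p = 0.0034) were lower, and these calls with that of Nfat5 peak 3 held in the 16 left-out fits. Quantile normalization ended those of Nfat5 peak 3 (-0.11), Nfatc2 peak 17 (-0.08) and Nfatc3 peak 1 (-0.01), and not that of Nfatc2 peak 15. Nfatc3 peak 1 held 1805 and 1731 in aged Dusp5 Tprog, 1942 and 1974 in Ttran, 1699.5 and 1713 in Ttad, and 1670.1 and 1823 in Tterm. The strongest 5% of all peaks had a median of -0.09 in this comparison, against 0.01 over all peaks, and quantile normalization left 2 members called; the part of that shift was not tested. Nfatc1 peaks 8 (-0.11), 16 (-0.24) and 17 (-0.17) were lower and Nfatc1 peak 7 (0.41) and Nfatc2 peak 14 (0.36) higher, each lost in 3 to 10 of the 16 fits, and peak 8 changed sign under quantile normalization (0.024). Their largest adjusted p were 0.142 without aged Dusp5 Ttad replicate 1 (peak 8), 0.0995 without aged OTC Ttad replicate 1 (peak 16), 0.0801 without aged Dusp5 Tprog replicate 2 (peak 17), and 0.146 and 0.197 without aged OTC Tterm replicate 2 for Nfatc1 peak 7 and Nfatc2 peak 14.

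In young hosts Zfp219 targeting, averaged over 3 states, changed 9 members, all lower, where 7.07% of all peaks were called and 5.15% lower. The median over the 55 was -0.18, against 0.00 over all peaks. Depth differed as well: young Zfp219 Ttran libraries held 6589023, 7606132 and 7952298 reads in peaks. Those of young OTC Ttran held 29942755, 17002746 and 12629361. Young Zfp219 Tprog libraries were shallower too, at 13047103 and 9764589 against 18493537 and 15520213 in young OTC Tprog. The Tterm libraries of both guides overlapped in depth. The part of depth was not tested. Nfatc2 had 4 of the 9 and Nfatc1 another 4. Nfatc2 peak 18 (chr2:168594733-168596493), between the 2 starts, held 302 and 366 in young Zfp219 Tprog, 510.2, 376 and 484 in Ttran, and 370.1, 423 and 382 in Tterm. OTC libraries held 589 and 439.8 in Tprog, 512, 522 and 577 in Ttran, and 475, 468 and 449.9 in Tterm. The Zfp219 libraries were lower in each state without overlap, by -0.37 (SE 0.07, adjusted p = 4.7e-05). The internal-start peak 17 of Nfatc2 did the same, by -0.20 (SE 0.04, adjusted p = 8.6e-04). These were 2 of 55 members, where 1.51% of all peaks were lower without overlap in all 3 young states. Nfatc2 peak 5 (-0.32, SE 0.07, adjusted p = 6.5e-04), Nfat5 peak 3 (-0.22, SE 0.04, adjusted p = 3.1e-04) and Nfatc1 peak 12 (-1.43, SE 0.30, adjusted p = 7.0e-04) were lower, and all 5 held in the 16 fits; quantile normalization ended the call of Nfatc2 peak 17 (-0.13). Nfatc1 peak 12 held 0.99 and 5.31 in young Zfp219 Tprog, 7.91, 6.86 and 27.8 in Ttran, and 48.8, 34.1 and 37.9 in Tterm, so its lowest value is about 1 read. Nfatc1 peak 17 (-0.22) held in these fits and was lost under quantile normalization (-0.16), while Nfatc1 peak 16 (-0.26), Nfatc1 peak 8 (-0.10) and Nfatc2 peak 12 (-0.23) were lost in 2, 10 and 4 fits. Their largest adjusted p were 0.0657 and 0.148 without young OTC Tprog replicate 1 (peaks 16 and 12) and 0.205 without young Zfp219 Tprog replicate 2 (peak 8). The strongest 5% of peaks had a median of -0.07 here, and its part was not tested.

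Dusp5 targeting in young hosts changed 2 members, both higher, where 3.82% of all peaks were called and 1.8% higher. Nfatc2 peak 6 held 68.8 and 106 in young Dusp5 Tprog, 122, 138 and 124 in Ttran, and 103, 119 and 114 in Tterm, above the young OTC libraries in each state without overlap. The difference was 0.62 (SE 0.15, adjusted p = 0.0055), lost without young Dusp5 Tprog replicate 2 (adjusted p = 0.0603). Nfatc1 peak 2 was higher by 0.25 (SE 0.07, adjusted p = 0.0356), lost in 10 of 16 fits, with the largest adjusted p without young OTC Tprog replicate 1 (adjusted p = 0.243), and in that state it held 312 and 297 against 149.7 and 200.2.

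The effect of Zfp219 targeting differed between host ages at 7 members (5 with a higher and 2 with a lower difference in aged hosts), where 9.11% of all peaks were called. This test averages Tprog, Ttran and Tterm at both ages and leaves out Ttad. Depth ran in opposite directions at the 2 ages. Zfp219 libraries were deeper than OTC in aged Ttran and Tterm, and shallower in young Tprog and Ttran, each without overlap. The part of depth was not tested. Nfatc1 peak 12 differed most, by 2.12 (SE 0.46, adjusted p = 7.5e-04), with -1.43 in young and 0.70 in aged hosts over these 3 states. Nfatc2 peak 18 (0.38, SE 0.10, adjusted p = 0.0069) was lower than OTC in young hosts, and aged Zfp219 libraries held 441 and 431 in Tprog, 512 and 602 in Ttran and 605 and 613 in Tterm, overlapping the aged OTC values. Nfat5 peak 5 (-1.33, SE 0.35, adjusted p = 0.0072) had 0.09 in young and -1.24 in aged hosts over the 3 states, and overlapped OTC in all 3 young states. These 3 held in all 28 left-out fits. The effect of Dusp5 targeting differed between host ages at no member by limma, where 4.0% of all peaks were called; 10 of 55 had an unadjusted p under 0.05 and edgeR called 2. No member was called for a guide effect in aged Ttad that differed from that in the other 3 aged states, in a test over groups of 2 libraries. The counts were 0 of 55 with Zfp219 (0.052% of all peaks called, 1 member with an unadjusted p under 0.05, edgeR 0) and 0 of 55 with Dusp5 (0.169% of all peaks called, 7 members with an unadjusted p under 0.05, edgeR 0), and with Dusp5 the count reached 1 with a library left out. The member under 0.05 with Zfp219 was Nfatc3 peak 3, at -1.39 (SE 0.51, adjusted p = 0.392).

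**Figure D5:**
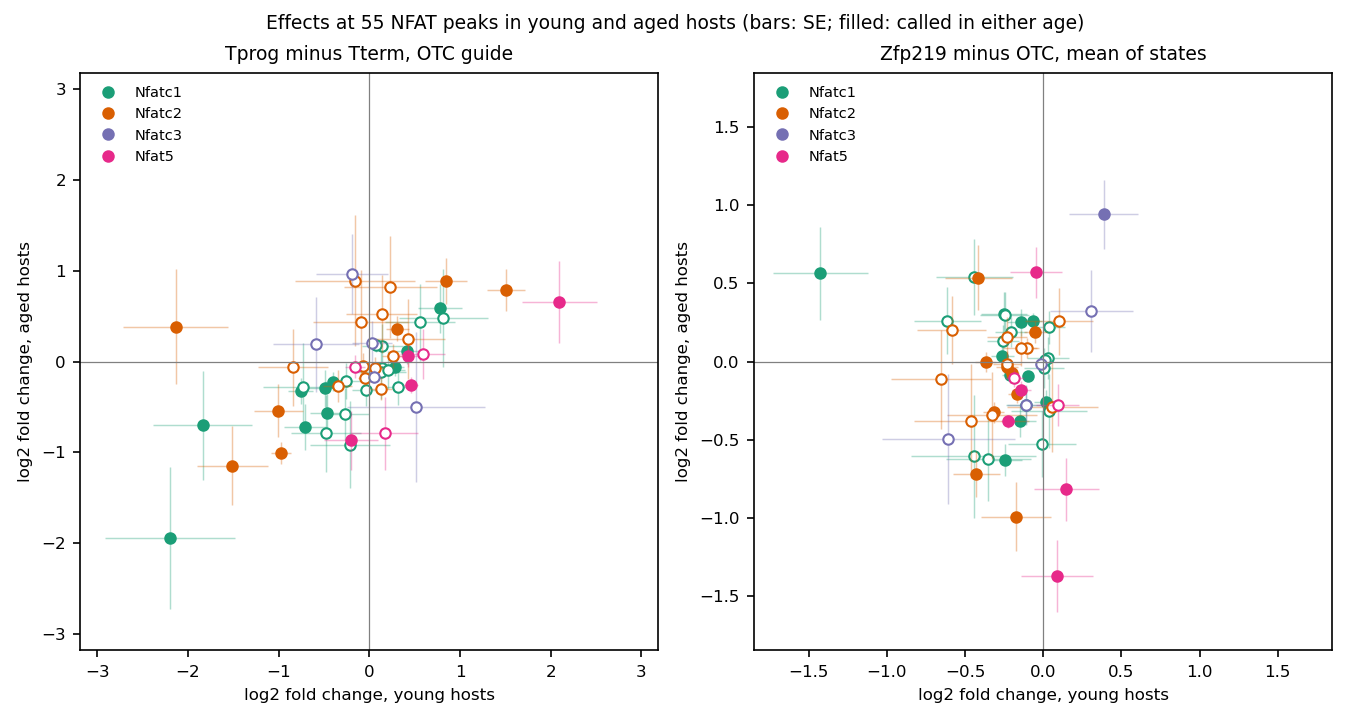
Log2 differences at the member peaks in young hosts (x axis) and in aged hosts (y axis), for Tprog minus Tterm with the OTC guide (left) and for Zfp219 minus OTC averaged over the 3 young and the 4 aged states (right), with bars for the standard error and filled points for peaks called in either host age. On the left Nfat5 peak 5 lies farthest to the right (2.096 in young hosts); on the right it is the lowest point (-1.37 in aged hosts).

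The genes of the calcium and calcineurin pathway were read from lists chosen with earlier results of these data known, so the counts are descriptions. Of 45 listed genes 44 had peaks, 328 in all. Of these peaks 116 (35.4%, against 26.5% of all peaks) were called between Tprog and Tterm in young hosts, 65 higher and 51 lower in Tprog. In aged hosts 101 were called (30.8%, against 20.1%), 45 higher and 56 lower. Between host ages 150 were called (45.7%, against 36.5%), 71 higher and 79 lower in aged. With Zfp219 targeted in aged hosts 102 were called (31.1%, against 25.8%), 35 higher and 67 lower, and with Dusp5 targeted 67 (20.4%, against 12.2%), 22 higher and 45 lower. The 10 NFAT target genes had 46 of 91 peaks called between states in young hosts (50.5%; 21 higher, 25 lower in Tprog) and 45 in aged hosts (14 higher, 31 lower). One of them, Havcr2, encodes the sort marker Tim-3; without it 41 of 86 peaks were called in young hosts (21 higher, 20 lower) and 41 in aged hosts (14 higher, 27 lower).

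Upstream of NFAT, the 22 peaks of the calcineurin subunit genes had 3 higher and 5 lower in young Tprog, and 2 higher and 4 lower in aged Tprog, where 13.9% of all peaks were higher and 12.6% lower in young and 8.88% and 11.2% in aged Tprog. The strongest peak of Ppp3ca, a catalytic subunit of calcineurin, was lower in Tprog, at -0.30 (SE 0.08, adjusted p = 0.0015) in young and -0.22 (SE 0.08, adjusted p = 0.0453) in aged hosts. Of the 102 peaks of calcium entry and release genes, 22 were higher and 17 lower in young Tprog. The strongest peak of Stim2, a sensor of stored calcium, was higher by 0.42 (SE 0.09, adjusted p = 9.8e-05) in young and 0.38 (SE 0.10, adjusted p = 0.0017) in aged Tprog. With Dusp5 targeted in aged hosts these genes had 9 peaks higher and 25 lower, where 4.35% and 7.87% of all peaks were. The kinases that return NFAT to the cytoplasm (Gsk3, Dyrk and casein kinase genes) had 13 of 49 peaks higher and 1 lower in young Tprog, and 4 higher and 4 lower in aged Tprog; the shares of all peaks are those given above, and the counts of the 2 ages were not tested against each other. The calcineurin inhibitors and scaffolds had 8 of 21 peaks lower and none higher in aged hosts, where 19.1% of all peaks were lower and 17.3% higher. Nfatc4, the other calcium-dependent member, had only 2 peaks, neither called between Tprog and Tterm.

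Among the target genes, the strongest peak assigned to Il2, which encodes the T cell growth factor, lies 47033 bp from the gene and was higher in Tprog by 1.281 (SE 0.12, adjusted p = 1.3e-15) in young and 1.09 (SE 0.13, adjusted p = 8.3e-11) in aged hosts. That of Ifng, 23001 bp from the gene, was lower, at -0.51 (SE 0.07, adjusted p = 9.1e-09) and -0.91 (SE 0.08, adjusted p = 9.8e-17). That of Havcr2, whose product the gate used, was lower, at -0.97 (SE 0.08) and -1.21 (SE 0.08). The 34 peaks of the NFAT5 osmotic target genes had 8 higher and 12 lower in aged hosts, where 17.3% and 19.1% of all peaks were. Between states in young hosts 6 of the 34 were called (4 higher, 2 lower), where 26.5% of all peaks were.

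Over the 21 group means, the summed log2 accessibility of the members was related unevenly. Pearson's r was 0.68 between Nfatc2 and Nfat5, 0.60 between Nfatc1 and Nfatc2, 0.47 between Nfatc1 and Nfat5, 0.37 between Nfatc1 and Nfatc3, 0.15 between Nfatc2 and Nfatc3, and 0.00 between Nfatc3 and Nfat5. The order differed within each host age: Nfatc2 and Nfat5 had 0.53 over the 12 aged and 0.44 over the 9 young groups, Nfatc1 and Nfatc2 had 0.70 and 0.59, Nfatc1 and Nfat5 had 0.47 and 0.69, and Nfatc1 and Nfatc3 had 0.63 and 0.07. The points are groups that share libraries across genes and the same few host ages, guides and states, so r is a description. Among 12435 to 12473 genes, by member, with a summed mean of at least 100 (another chromosome or over 1 Mb away), the profiles most like Nfat5 were LOC108168726 (0.95), Cx3cl1 (0.95), Nlgn3 (0.94), Nfkb1 (0.94) and Pik3r6 (0.93), and the most opposite was Prep (-0.93). For Nfatc2 they were Rftn1 (0.91), Gadd45b (0.91), Hlf (0.90), Iffo2 (0.90) and Bcl2a1d (0.90), with Twsg1 at -0.90. For Nfatc1 they were Rin3 (0.86), Tnfrsf1b (0.85), Ehbp1l1 (0.83), Lfng (0.81) and Fmnl1 (0.80), with Dis3l2 at -0.75. For Nfatc3 they were Dcaf6 (0.83), R3hdm1 (0.82), Cox8a (0.82), Kif24 (0.80) and 2610044O15Rik8 (0.80), with Slc35g1 at -0.74.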

How the data were processed

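ATAC-seq was run on 48 libraries in 21 groups. Per the submitters' processing notes, Bowtie2 2.2.9, Picard 2.8.0, SAMtools 1.3.1, MACS2 2.1.1 and DESeq2 1.28.1 were used with mm10; settings are not given in the sources used here. The deposited values are a signal, the authors' read counts per peak divided by a size factor per library: 100.0% of the values in each library came out as whole reads within 0.01 read. Dividing by one factor per library leaves a shift of the strongest peaks against the rest in place. Peaks were assigned with RefSeq genes of GRCm38.p6.

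All 53868 peaks were fitted on log2(value + 1) with limma 3.58.1 (R 4.3.3, group means, trend, all 48 libraries), Benjamini-Hochberg adjusted over all peaks and called under 0.05; fold changes understate those of weak peaks. The script was tested on simulated data. Alternatives were edgeR 4.0.16's quasi-likelihood test on the recovered reads, the weakest 25% of peaks removed, a pseudocount of 8, quantile scaling, median-of-ratios scaling (the same factor in every library, so void), library weights, a replicate block, the compared groups alone, and each library left out.

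Peaks named are, per gene, the strongest in the body, the most variable, and per comparison up to 3 called peaks with the largest change in each direction; other named peaks were chosen after their values were seen, for their position or because their call did or did not hold. The members and lists were chosen with earlier results of these data known. Some genes of the pathway and marker lists are not reported here.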

Additional observations from a re-analysis of the deposited data

Results flagged for a closer look

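These 8 results were singled out because the same contrast differed between young and aged hosts by a test of the difference itself (limma, adjusted over all peaks). Host age cannot be told apart from the sample sheet in any of them, and the difference is aged minus young on the log2 scale.

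With the OTC guide, the Tprog minus Tterm difference of Nfat5 peak 3 was 0.46 in young and -0.26 in aged hosts. The difference of -0.72 held in 9 of 9 fits with a library left out. The Zfp219 effect, averaged over Tprog, Ttran and Tterm, differed at Nfatc1 peak 12 by 2.12, at Nfatc2 peak 18 by 0.38 and at Nfat5 peak 5 by -1.33, each held in 28 of 28 fits. At Nfatc1 peak 5 it differed by 0.49, lost without young Zfp219 Tprog replicate 1 (adjusted p = 0.0651), and at Nfatc1 peak 23 by 0.27, lost without aged OTC Ttran replicate 2 (adjusted p = 0.0515). At Nfatc1 peak 7 it differed by 0.66, which held in 12 of 28 fits (largest adjusted p 0.125, without aged Zfp219 Ttran replicate 1), and at Nfat5 peak 2 by -0.97, which held in 16 of 28 (largest adjusted p 0.157, without young Zfp219 Tprog replicate 2). No group held 4 or more libraries, so no library was tested as an outlier of its group.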

How the results depend on the processing

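Of 132 called results (a peak in a comparison), 96 were called in each of up to 7 alternatives, 61 in each fit that left out a library, and 56 in both. Rescaling by the median of ratios gave every library the same factor, so it tested nothing and is not counted. Quantile normalization ended or turned 22 calls, the compared groups alone 11, the replicate block 11, library weights 8, a pseudocount of 8 ended 2 and edgeR 1. Counts of called members that moved by over 1.5 times were few outside the left-out fits. For Ttad against Tterm (0 members), 1 was called with the weakest 25% of peaks removed and 2 by edgeR; for Ttad against Ttran (4), library weights and the compared groups alone each called 1. The age difference of Tprog against Tterm (1) had 2 with library weights. Dusp5 in aged hosts (9) had 2 under quantile normalization, Dusp5 in young hosts (2) had 1 with the replicate block and 5 with the compared groups alone, and the age difference of Dusp5 (0) had 2 with the compared groups alone and 2 by edgeR. With a library left out, the counts ran from 11 to 18 for young and 1 to 5 for aged Tprog against Tterm, 3 to 5 and 2 to 4 for Ttran against Tterm, and 5 to 9 and 5 to 8 for Ttran against Tprog. They ran from 0 to 3 for Ttad against Tterm, 1 to 2 for Ttad against Tprog, 2 to 4 for Ttad against Ttran, 1 to 2 for the age difference of Tprog against Tterm, 0 to 3 for Dusp5 in young hosts, and 0 to 1 for the age difference of Dusp5 and for Dusp5 in Ttad. Quantile normalization reversed Nfatc1 peak 8 in aged Ttran against Tprog (-0.0749), in Zfp219 aged (0.0389) and in Dusp5 aged (0.0238). The causes were not tested.

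Over all peaks, deviations from the group mean in libraries of the same replicate number had correlations from -0.015 to 0.017. These cover 57 pairs of states, 48 of guides and 18 of host ages. In groups of 2 libraries the deviations mirror each other, so both numbers give the same correlation. Such low values gave no sign of pairing but cannot exclude it, as the spread of single peaks can hide it. The replicate block ended 11 calls and, besides Dusp5 in young hosts, moved no count by over 1.5 times. Assigning only peaks in gene bodies keeps 41 members, and a limit of 25 kb keeps 49. Groups of 2 or 3 libraries and peaks of a few reads limit what can be called.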
